A study of Homo sapiens with 15 samples.

Results

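The tricarboxylic acid (TCA) cycle of the mitochondrion oxidises acetyl groups and hands the electrons to the respiratory chain. Expression of 9 genes of this cycle was followed in MRC5 human lung fibroblasts and in the small cell lung cancer (SCLC) cell line H196, grown apart or together. The genes were picked from the cycle with earlier results of these data known: CS, IDH3A, IDH3B, IDH3G, OGDH, SUCLG1, SUCLG2, FH and MDH2. They are therefore not an unbiased sample of the cycle, and its other subunits are given below. All 9 were found among the 16382 genes listed for MRC5 and among the 16076 listed for H196, and all 9 passed the filter on low counts in both lines.

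The series holds 15 polyA-selected RNA-seq libraries in 5 groups of 3. MRC5 fibroblasts were grown alone (MRC5_Mo), with the neuroendocrine SCLC line H69 (MRC5_coH69) or with the non-neuroendocrine SCLC line H196 (MRC5_coH196), and H196 cells were grown alone (H196_Mo) or with MRC5 (H196_Co). The partners shared medium for 7 days across a membrane with 0.4 µm pores, and the 3 libraries of a group are parallel cultures of 1 line. MRC5 was routinely kept in MEM and the SCLC lines in RPMI, and the medium of the co-cultures is not given in the sources used here, so co-culture and a possible change of medium cannot be told apart in any comparison with cells grown alone. No library of H69 cells was analysed here. Library totals ran from 16073597 to 19170560 estimated counts.

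Cell identity was checked against defining markers in FPKM, the fragments assigned to a gene per kilobase of its length and per mapped fragment total. The summed level of 9 fibroblast markers was 2543 to 6113 FPKM in the MRC5 libraries, and each of the 9 was above 1 FPKM in every one. Of these markers 8 were listed for H196, each under 1 FPKM, with a sum of 0.36 to 0.58 FPKM in all 6 libraries, so fibroblast RNA was near 0 in the co-cultured tumour cells too. H196 carried YAP1, REST, MYC and AXL, the markers of non-neuroendocrine SCLC, at group means of 5.61 to 61.2 FPKM. It also carried the neuroendocrine genes CHGB (18.97 ± 1.01 FPKM, SD, n = 3) and SYP (8.71 ± 0.30 FPKM) when grown alone, whereas CHGB was at 0.107 FPKM in MRC5_Mo and 0.0967 FPKM in MRC5_coH196.

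Citrate synthase (CS) opens the cycle by joining acetyl-CoA to oxaloacetate. NAD-dependent isocitrate dehydrogenase, IDH3, oxidises isocitrate and is built from the catalytic alpha subunit (IDH3A) with the beta (IDH3B) and gamma (IDH3G) subunits. OGDH is the first enzyme of the 2-oxoglutarate dehydrogenase complex. Succinyl-CoA ligase pairs the common alpha subunit SUCLG1 with either the GTP-forming subunit SUCLG2 or the ATP-forming subunit SUCLA2. Fumarase (FH) hydrates fumarate to malate, and mitochondrial malate dehydrogenase (MDH2) returns malate to oxaloacetate.

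In the GRCh38.p13 coordinates of the tables, the genes lie on 8 chromosomes: CS at chr12:56259371-56302767, IDH3A at chr15:78149362-78171945, IDH3B at chr20:2658394-2670936, IDH3G at chrX:153785768-153794375, OGDH at chr7:44606572-44709066, SUCLG1 at chr2:84423528-84459280, SUCLG2 at chr3:67360460-67654612, FH at chr1:241497603-241519755 and MDH2 at chr7:76048106-76067508. The spans given for CS and IDH3B are longer than the RefSeq genes (43397 against 28632 bases and 12543 against 5822 bases). The CS span also overlaps COQ10A, that of IDH3A ACSBG1, that of IDH3B its divergent transcript IDH3B-DT and LOC105372507, that of IDH3G SSR4, and that of SUCLG2 the pseudogene NDUFB4P1. For CS, IDH3B and SUCLG2 the tables also list the strand opposite to RefSeq. How reads of such overlaps were assigned, and whether the counting used strand, is not given in the sources used here, so part of the counts of these 5 genes may come from the neighbour.

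The bases just upstream of the start site are shown for the 2 genes that fell most in fibroblasts with H196 (IDH3A and FH) and for the 1 that was not called there (SUCLG2). They are RefSeq sequences of build GRCh38.p14, each 250 bases and written 5′ to 3′ on the gene's own strand: chr15:78149112-78149361 (plus strand), chr1:241519756-241520005 (minus strand) and chr3:67654613-67654862 (minus strand). Capitals mark the letters GCGTG, one form of the hypoxia response core.
IDH3A: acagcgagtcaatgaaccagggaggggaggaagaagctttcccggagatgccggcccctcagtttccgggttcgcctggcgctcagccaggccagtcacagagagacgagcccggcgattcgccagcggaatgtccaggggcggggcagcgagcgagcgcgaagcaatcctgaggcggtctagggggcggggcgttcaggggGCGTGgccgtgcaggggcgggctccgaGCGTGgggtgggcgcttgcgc
FH: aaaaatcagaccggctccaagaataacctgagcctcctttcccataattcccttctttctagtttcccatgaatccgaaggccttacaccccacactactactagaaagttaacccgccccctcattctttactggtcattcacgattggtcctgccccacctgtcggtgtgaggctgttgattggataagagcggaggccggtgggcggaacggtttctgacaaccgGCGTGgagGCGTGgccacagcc
SUCLG2: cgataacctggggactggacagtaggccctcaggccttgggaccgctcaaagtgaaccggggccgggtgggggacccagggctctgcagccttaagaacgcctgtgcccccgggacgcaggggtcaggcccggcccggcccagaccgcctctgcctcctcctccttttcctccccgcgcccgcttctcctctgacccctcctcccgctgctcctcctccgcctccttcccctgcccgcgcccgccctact

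IDH3A held this core at positions -48 and -21 and FH at -22 and -14, counted back from the base before the start site. The core, searched as ACGTG or GCGTG on both strands, was present in 5 of the 8 member windows at hand and in 43.2% of all 35116 RefSeq windows of the same length. IDH3G held 3 matches, IDH3A and FH 2 each, IDH3B and SUCLG1 1 each, and CS, MDH2 and SUCLG2 none. In the comparison with H196 described below CS and MDH2 fell without a match, and IDH3G, with the most, fell least of the genes called. Whether the core has a part in the fall of any gene was not tested. The GABPA motif CCGGAAG was present in 3 of the 8 (IDH3B, IDH3G and MDH2) and in 8.52% of all windows. The NRF1 motif GCATGCG and the ESRRA motif AAGGTCA were in none of the 8, beside 3.39% and 3.44% of all windows.

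Per kilobase, MDH2 had the highest level of the 9 genes in MRC5 grown alone (129 ± 3.16 FPKM, SD, n = 3) and IDH3A the lowest (12.9 ± 0.27 FPKM). In H196 grown alone the same genes stood at the ends, with MDH2 at 252 ± 8.74 FPKM and IDH3A at 17.5 ± 1.37 FPKM. Within the IDH3 enzyme the 3 subunits were listed at unequal levels in MRC5_Mo, with IDH3B at 48.9 ± 2.12 FPKM and IDH3G at 53.5 ± 2.16 FPKM. The summed level of the 9 genes was 489 to 517 FPKM in MRC5_Mo, 464 to 483 FPKM in MRC5_coH69 and 335 to 347 FPKM in MRC5_coH196. In H196 the sum was 741 to 766 FPKM alone and 701 to 763 FPKM with fibroblasts, so the ranges overlapped in the tumour cells and did not overlap among the fibroblast groups.

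**Figure D1:**
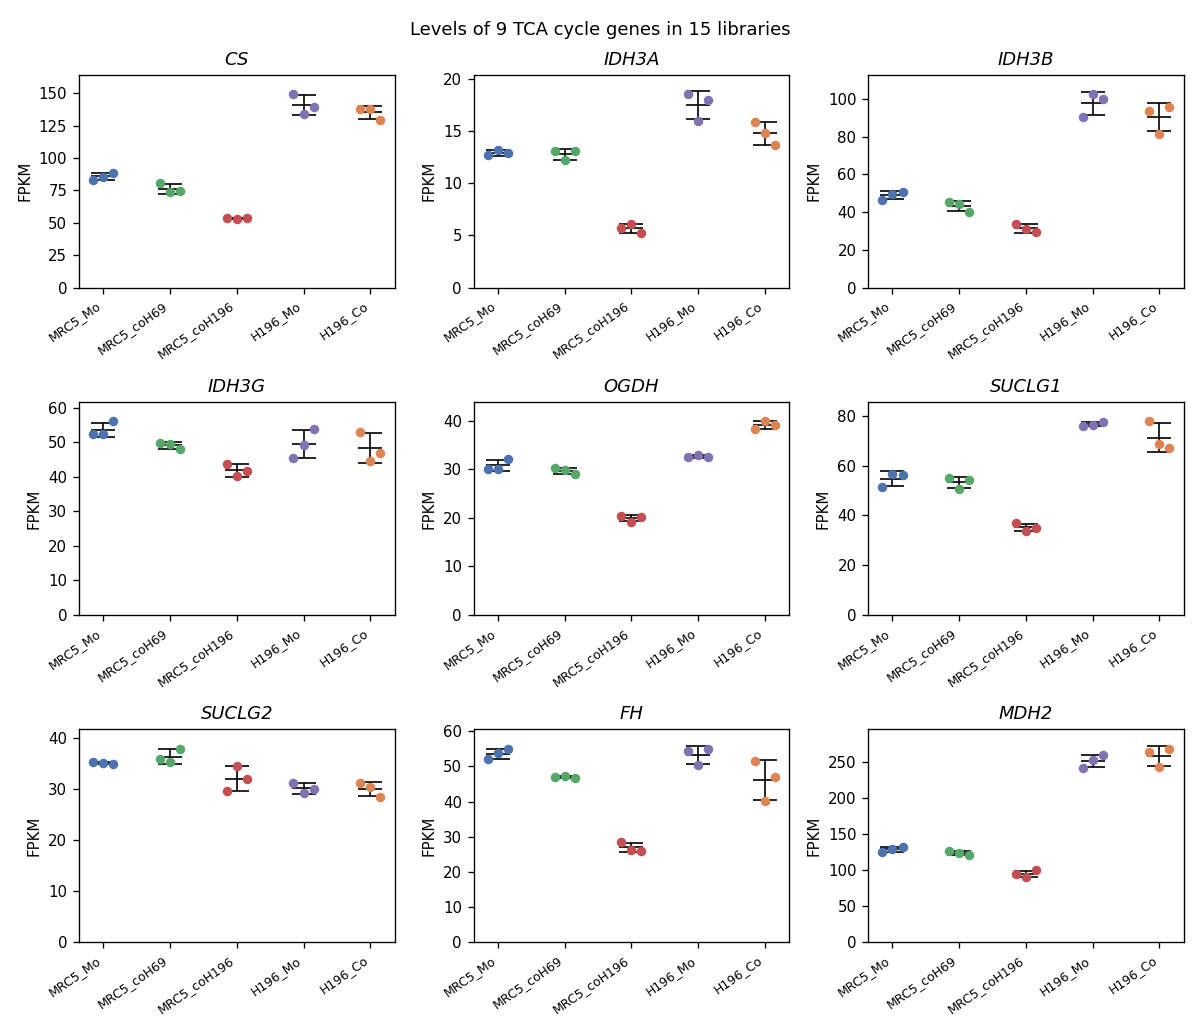
FPKM of the 9 TCA cycle genes, one panel per gene, with the 3 libraries of each of the 5 groups as points and the mean ± SD as black bars; the vertical axes start at 0 and differ in scale. MRC5_coH196 is the lowest fibroblast group in every panel, from IDH3A at 5.69 FPKM against 12.9 FPKM in MRC5_Mo to SUCLG2 at 31.997 FPKM against 34.98 FPKM. The 2 H196 groups overlap for 7 genes, including FH with means of 53.3 FPKM alone and 46.1 FPKM with MRC5. They are separate for OGDH and, by a margin of 15.86 to 15.91 FPKM, for IDH3A.

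The question of the first comparison was how fibroblasts differ when a non-neuroendocrine tumour line shares their medium. Of the 9 genes, 8 fell in MRC5_coH196 against MRC5_Mo, none rose, and SUCLG2 was not called. A gene was called changed when its Benjamini-Hochberg adjusted p from edgeR's quasi-likelihood test, taken over all 12819 genes tested, was under 0.05. By that rule 37.1% of all tested genes were lower and 37.2% higher, and the median log2 fold change was -0.47 over the 9 genes beside -0.0030 over all tested genes. IDH3A and FH also passed the limit of 0.58 on the absolute log2 fold change that the study set for a DEG, as 14.7% of all tested genes did in the lower direction. RNA was taken from whole wells, so fewer transcribing cells and less RNA per cell cannot be told apart.

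IDH3A, the catalytic subunit of IDH3, fell most. Its level was 12.67, 13.20 and 12.84 FPKM in MRC5_Mo, 13.08, 12.17 and 13.06 FPKM in MRC5_coH69, and 5.71, 6.11 and 5.24 FPKM in MRC5_coH196. All 3 libraries with H196 lay below all 6 others, and the libraries with H69 overlapped those grown alone. In CPM scaled by edgeR's TMM factors the group mean with H196 was 51.3% of that in MRC5_Mo, a log2 fold change of -0.96 (SE 0.062, adjusted p = 5.17e-13, edgeR).

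The other IDH3 subunits had smaller log2 fold changes. IDH3B was at 46.46, 49.66 and 50.46 FPKM in MRC5_Mo and at 33.91, 30.83 and 29.38 FPKM in MRC5_coH196, a log2 fold change of -0.46 (SE 0.062, adjusted p = 3.29e-07, edgeR). IDH3G was at 52.24, 52.28 and 56.00 FPKM and at 43.78, 40.13 and 41.66 FPKM, a log2 fold change of -0.19 (SE 0.054, adjusted p = 0.00313, edgeR). The groups did not overlap for either subunit, and in scaled CPM the groups were separate and lower for 8 of the 9 genes and for 37.9% of all tested genes.

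Fumarase came next to IDH3A in size of change. FH was at 52.09, 53.90 and 54.90 FPKM in MRC5_Mo, at 46.84, 47.37 and 46.82 FPKM in MRC5_coH69 and at 28.43, 26.34 and 25.99 FPKM in MRC5_coH196. The 3 fibroblast groups were fully separate, and with H196 the scaled mean was 56.6% of that in MRC5_Mo (log2 fold change -0.82, SE 0.050, adjusted p = 2.05e-13, edgeR). MDH2, the next enzyme of the cycle, was at 125.51, 130.03 and 131.59 FPKM alone and at 94.90, 91.09 and 99.56 FPKM with H196, a smaller fall of 0.27 on the log2 scale (adjusted p = 1.14e-05).

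CS and OGDH lay between these. CS was at 83.23, 85.69 and 88.54 FPKM in MRC5_Mo and at 53.57, 52.95 and 54.04 FPKM in MRC5_coH196 (log2 fold change -0.51, SE 0.046, adjusted p = 2.88e-10, edgeR). OGDH was at 30.07, 30.09 and 32.16 FPKM alone and at 20.34, 19.15 and 20.09 FPKM with H196 (log2 fold change -0.48, adjusted p = 2.18e-09, edgeR). In both cases every library with H196 was below every library grown alone.

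Of the succinyl-CoA ligase subunits, SUCLG1 fell and SUCLG2 was not called. SUCLG1, the common alpha subunit, was at 51.38, 56.67 and 56.20 FPKM in MRC5_Mo and at 36.73, 33.83 and 34.91 FPKM in MRC5_coH196 (log2 fold change -0.47, adjusted p = 5.98e-08, edgeR). SUCLG2, the GTP-forming subunit, was at 35.14, 35.03 and 34.77 FPKM and at 29.51, 34.50 and 31.98 FPKM, separate in FPKM but overlapping in scaled CPM. On the TMM scale its log2 fold change was 0.04 (SE 0.051, adjusted p = 0.447, edgeR), and on log2(FPKM + 1) it was -0.13 (adjusted p = 0.0459, limma), so its direction depends on the scaling. The median of all tested genes was -0.13 on that FPKM scale, and of the genes called there 65.2% were lower, beside 49.96% with TMM. The other 8 genes were lower and called on both scales.

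Fibroblast markers differed between the same groups. Their sum was 5147 to 5735 FPKM in MRC5_Mo and 2543 to 2692 FPKM in MRC5_coH196, where COL1A1 (log2 fold change -1.57), COL1A2 (-0.56) and COL3A1 (-2.09) fell, 5 markers such as PDGFRB (0.67) rose and THY1 was not called. All 4 non-neuroendocrine SCLC markers, which MRC5 also carried when grown alone, rose (MYC 0.9995, YAP1 0.33, AXL 0.28 and REST 0.28), from a sum of 247 to 263 FPKM to one of 284 to 297 FPKM. Beside these counts stand 37.2% of all tested genes higher and 37.1% lower. Of the epithelial markers KRT7 (1.43) and KRT8 (0.83) rose and KRT18 fell (-0.25), with a sum of 87.5 to 92.3 FPKM alone and 72.2 to 85.2 FPKM with H196. EPCAM and CDH1 were under 1 FPKM in every MRC5 library and were not tested. CD68, listed as a macrophage marker but at 55.1 FPKM in MRC5_Mo and 58.5 FPKM in H196_Mo already, rose (0.69). The other markers of its list, PTPRC, PECAM1 and CDH5, were each under 1 FPKM in every MRC5 library. The 4 neuroendocrine markers listed for MRC5 were each under 1 FPKM in every library, at a sum of 0.46 to 0.73 FPKM alone and 0.34 to 0.59 FPKM with H196. The part of these markers in the fall of the TCA cycle genes was not tested.

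**Figure D2:**
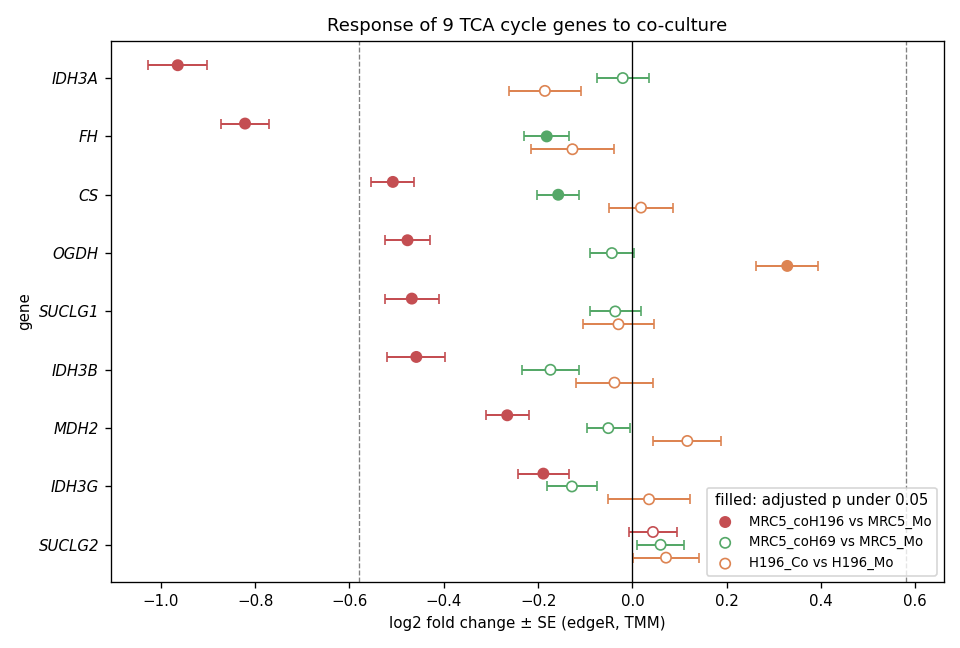
Log2 fold change ± SE of the 9 genes (horizontal axis, edgeR with TMM scaling) in MRC5 with H196 and with H69 against MRC5 alone and in H196 with MRC5 against H196 alone; filled points have an adjusted p under 0.05 and dashed lines mark the limit of 0.58. The fibroblasts with H196 reach from -0.96 (IDH3A) to 0.04 (SUCLG2), those with H69 stay between -0.18 and 0.06, and OGDH is the filled point to the right in H196.

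With the neuroendocrine line H69, 2 of the 9 genes were called lower, none higher, and 2.93% of all tested genes were called lower. FH fell by 0.18 on the log2 scale (SE 0.048, adjusted p = 0.0200) and CS fell by 0.16 (SE 0.045, adjusted p = 0.0325). CS was at 80.84, 73.57 and 74.61 FPKM in MRC5_coH69, below all 3 libraries grown alone. In scaled CPM the groups were separate and lower for 4 of the 9 genes (CS, FH, IDH3B and IDH3G) and for 12.1% of all tested genes. They were separate and higher for SUCLG2 and for 13.6% of all tested genes, and overlapped for IDH3A, OGDH, SUCLG1 and MDH2. The call of FH was lost without MRC5_Mo replicate 2 or 3 or MRC5_coH69 replicate 1 or 3 (adjusted p = 0.0630 to 0.108), that of CS without MRC5_Mo replicate 2 or 3 or MRC5_coH69 replicate 2 or 3 (adjusted p = 0.104 to 0.174), and that of CS also on log2(FPKM + 1) (adjusted p = 0.0549, limma). IDH3A had a log2 fold change of -0.02 (SE 0.056, adjusted p = 0.885, edgeR) and IDH3B one of -0.17 (SE 0.060, adjusted p = 0.0819, edgeR). Its 3 libraries with H69, at 45.28, 44.34 and 40.11 FPKM, also lay below those of MRC5_Mo, and without MRC5_Mo replicate 1 it was called (adjusted p = 0.0384).

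Set directly against each other, fibroblasts with H196 were lower than those with H69 in 7 of the 9 genes, beside 36.6% of all tested genes. IDH3A (-0.94, SE 0.062, adjusted p = 1.04e-12) and FH (-0.64, SE 0.051, adjusted p = 3.93e-11) passed the limit of 0.58, as 13.1% of all tested genes did, and CS, OGDH, SUCLG1, IDH3B and MDH2 ranged from -0.43 to -0.21. IDH3G (-0.06, adjusted p = 0.328) and SUCLG2 (-0.02, adjusted p = 0.787) were not called with TMM but were called lower on log2(FPKM + 1), at -0.22 and -0.18, where the median of all tested genes was -0.14. Both comparisons with H196 share the MRC5_coH196 libraries, and both comparisons with MRC5_Mo share the control libraries.

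In the tumour cells, the comparison addressed what fibroblasts do to H196. OGDH was the only one of the 9 genes called in H196_Co against H196_Mo with edgeR, and it rose, as 12% of all 12806 tested genes did. Its level was 32.44, 32.89 and 32.49 FPKM in H196_Mo and 38.16, 39.83 and 39.12 FPKM in H196_Co. All 3 co-cultured libraries were above all 3 grown alone, with a log2 fold change of 0.33 (SE 0.066, adjusted p = 0.00162, edgeR).

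IDH3A was at 18.51, 15.91 and 17.96 FPKM in H196_Mo and at 15.86, 14.82 and 13.66 FPKM in H196_Co. The groups did not overlap, by a margin of 15.86 to 15.91 FPKM, and the log2 fold change of -0.19 was not called (SE 0.076, adjusted p = 0.0918, edgeR). It was called when all 15 libraries shared 1 model (-0.17, adjusted p = 0.0491). The other 7 genes had log2 fold changes from -0.13 (FH) to 0.12 (MDH2), with SE of 0.067 to 0.087, and overlapping groups. Of all tested genes 17% were lower and 20.2% higher with no overlap of the groups.

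The difference between the responses of the partners was tested in 1 model of all 15 libraries. The model covered 13585 genes that were listed for both lines and passed the filter on low counts over all 15 libraries. Some of these, such as COL1A2 and COL3A1, did not pass that filter in H196 on its own. The change in fibroblasts with H196 minus the change in H196 with fibroblasts was below 0 and called for 8 of the 9 genes, beside 27.1% of all genes in that direction. OGDH gave the largest difference of the 9, -0.83 (SE 0.073, adjusted p = 3.20e-10), since it fell in the fibroblasts and rose in the tumour cells. IDH3A followed with -0.81 (SE 0.095, adjusted p = 6.40e-08) and FH with -0.72 (SE 0.10, adjusted p = 9.16e-07). SUCLG2 was not called (-0.05, adjusted p = 0.600). The call of IDH3G (-0.25, adjusted p = 0.0459) was lost in 18 of 21 alternatives (adjusted p = 0.0512 to 0.263). These were DESeq2's test and its size factors, both other filters, the replicate block and 13 of the 15 fits that left out 1 library, all but those without H196_Mo replicate 3 or H196_Co replicate 2. The other 7 genes kept their calls in all 21 alternatives.

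Ratios within a library do not depend on library scaling. The log2 ratio of IDH3A to IDH3B in FPKM was -1.92 ± 0.051 (SD, n = 3) in MRC5_Mo, -1.76 ± 0.13 in MRC5_coH69 and -2.46 ± 0.12 in MRC5_coH196. The ratio of IDH3A to IDH3G fell further, from -2.05 ± 0.070 to -2.88 ± 0.15. For both ratios all 3 libraries with H196 lay below every other fibroblast library. In H196 the same ratios were -2.48 ± 0.20 and -1.50 ± 0.18 alone and -2.61 ± 0.18 and -1.70 ± 0.099 with MRC5, with overlapping groups.

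The log2 ratio of SUCLG2 to SUCLA2, the alternative beta subunits of succinyl-CoA ligase, was 0.61 ± 0.015 in MRC5_Mo, 0.76 ± 0.095 in MRC5_coH69 and 1.08 ± 0.064 in MRC5_coH196. In H196 it was 0.94 ± 0.052 alone and 1.21 ± 0.075 with MRC5, so in both lines the groups were separate and the co-cultured group was the higher one. The ratio of FH to MDH2 went the other way. In the fibroblasts it was -1.27 ± 0.0049 in MRC5_Mo, -1.40 ± 0.034 in MRC5_coH69 and -1.82 ± 0.10 in MRC5_coH196, with the 3 groups separate. In H196 it went from -2.24 ± 0.086 alone to -2.49 ± 0.12 with MRC5. With 3 libraries a group the two-sided exact permutation test cannot go below p = 0.1, which was reached in 13 of the 16 comparisons of ratios (adjusted p = 0.123).

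**Figure D3:**
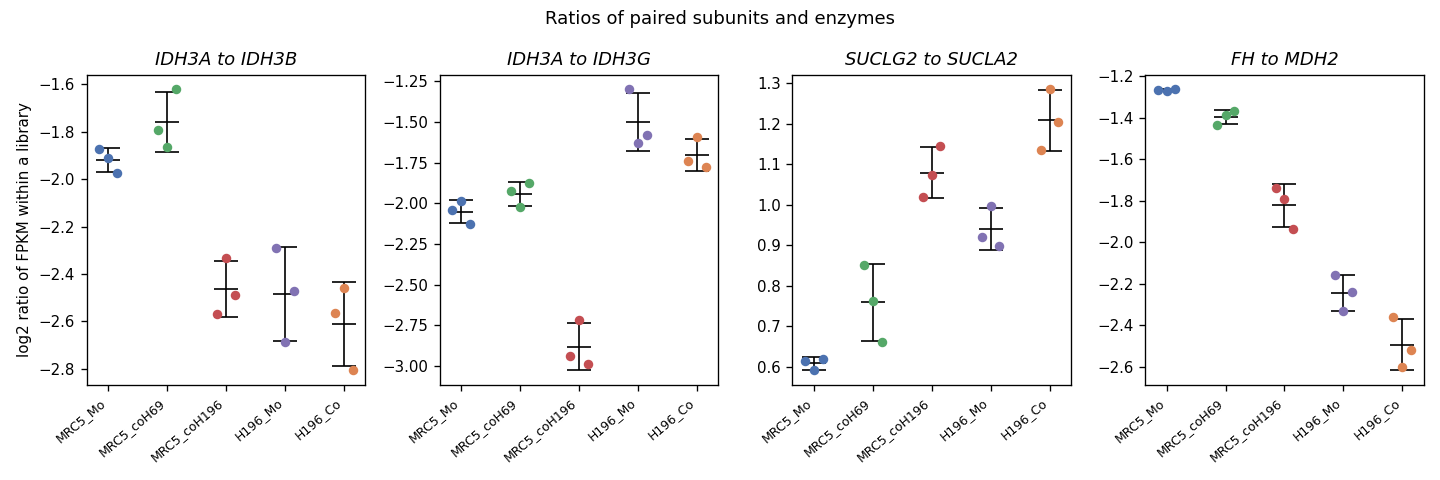
Log2 ratio of FPKM within a library (vertical axis) for 4 pairs of genes in the 5 groups, with libraries as points and mean ± SD as black bars. IDH3A loses ground to IDH3B and to IDH3G in MRC5_coH196 (-2.46 and -2.88), and SUCLG2 gains on SUCLA2 in both lines under co-culture. FH is lower against MDH2 in MRC5_coH196 (-1.82) and, by less, in MRC5_coH69 (-1.40) than in MRC5_Mo (-1.27).

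In order of FPKM, MRC5_coH196 was the lowest of the 5 groups for 8 of the 9 genes, and its range did not reach that of the next group for any of those 8. The share of all genes with this order was not computed, so the count cannot be set against a background. On log2(FPKM + 1) the median of all tested genes was -0.13 for MRC5_coH196 against MRC5_Mo and -0.34 for MRC5_Mo against H196_Mo. For CS, IDH3A, IDH3B and SUCLG1 the order rose through MRC5_coH69 and MRC5_Mo to H196_Co and H196_Mo. The neighbours MRC5_coH69 and MRC5_Mo overlapped for IDH3A, OGDH, SUCLG1 and MDH2, and H196_Co and H196_Mo for CS, IDH3B, SUCLG1, SUCLG2 and MDH2. IDH3G had overlapping neighbours in all groups above MRC5_coH196, and FH in H196_Co with MRC5_coH69 and in H196_Mo with MRC5_Mo. SUCLG2 had the narrowest order, from 29.97 ± 1.38 FPKM in H196_Co to 36.3 ± 1.41 FPKM in MRC5_coH69.

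Between the lines grown alone, direction depended on scale for some genes, since the median of all 13585 genes was -0.34 on log2(FPKM + 1) and -0.028 with TMM. With TMM, SUCLG2 (0.66, adjusted p = 1.65e-11), IDH3G (0.55), FH (0.45) and OGDH (0.39) were higher in MRC5_Mo, and IDH3B (-0.59), MDH2 (-0.53) and CS (-0.27) were higher in H196_Mo. IDH3A (0.05, adjusted p = 0.419) and SUCLG1 (-0.05, adjusted p = 0.502) were not called. On log2(FPKM + 1), IDH3A was at -0.41 (adjusted p = 2.97e-05, limma) and OGDH at -0.08 (adjusted p = 0.0803, limma), the opposite signs. On that scale FH (0.010, adjusted p = 0.890, limma) and IDH3G (0.11, adjusted p = 0.108, limma) lost their calls. SUCLG1 was called lower in MRC5_Mo there (-0.48, adjusted p = 5.94e-07, limma). SUCLG2, IDH3B, MDH2 and CS kept their directions and calls. Of the genes called on that scale 66.8% were lower in MRC5, beside 50.8% with TMM. Of all genes 86.6% were called in this comparison, and cell line, medium and table cannot be told apart.

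The genes whose profile over the 9 MRC5 libraries was most like that of IDH3A were DNAJA1, a co-chaperone (root mean square difference of centred log2 CPM 0.031), MRPS7, a mitochondrial ribosomal protein (0.036), MAK16, a ribosome assembly factor (0.038), CYCS, cytochrome c (0.047), and DNAJB11, a co-chaperone of the endoplasmic reticulum (0.047). Their log2 fold changes with H196 ran from -1.04 to -0.94. FH was the most like of the other TCA cycle genes (0.133), at rank 499 of 12818 genes, and SUCLG2 the least (0.459), at rank 6290.

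Most other subunits of the cycle that were called fell as well. Of 8 such genes 7 could be tested in MRC5, and with H196 4 fell, SDHA rose and DLST and SDHD were not called, with a median of -0.16 and none past 0.58, beside 37.1% of all tested genes lower and 37.2% higher. DLD, the lipoamide dehydrogenase shared by several complexes, fell most (-0.46, SE 0.049, adjusted p = 6.50e-09), followed by SUCLA2 (-0.43), SDHB (-0.34) and SDHC (-0.16). SDHA, the flavoprotein of succinate dehydrogenase, rose by 0.20 (SE 0.051, adjusted p = 9.23e-04). In H196 none of the 8 was called by edgeR, 2 were at an unadjusted p under 0.05 (DLD and SUCLA2), DESeq2 called 0 and limma on log2(FPKM + 1) called 2.

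Enzymes with a like reaction outside the cycle showed 6 of 8 lower and 0 higher in MRC5_coH196, with a median of -0.28, against the same background of 37.1% lower and 37.2% higher. IDH1, the cytosolic NADP-dependent isocitrate dehydrogenase, fell by 0.52 on the log2 scale (adjusted p = 1.21e-09) and its mitochondrial counterpart IDH2 fell by 0.23, whereas ACLY and ME3 were not called. In H196_Co, IDH1 fell (-0.39, adjusted p = 0.00104, edgeR) and IDH2 rose (0.55, adjusted p = 1.64e-05, edgeR). The other 6 were not called there, and of all genes tested in H196 7.78% were lower and 12% higher.

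Mitochondrial carriers that exchange cycle intermediates and amino acids were the list with the lowest median. Of 6 carriers 5 fell with H196, 4 of them past 0.58, with a median of -0.88, beside 37.1% of all tested genes lower and 14.7% lower past that limit. SLC25A10, the dicarboxylate carrier, went from 5.73 ± 0.27 to 1.97 ± 0.062 FPKM (log2 fold change -1.37), and the glutamate carrier SLC25A22 (-1.08) and the aspartate-glutamate carriers SLC25A13 (-1.03) and SLC25A12 (-0.73) also fell. SLC25A1, the citrate carrier, was not called (0.07, adjusted p = 0.207). In H196_Co, SLC25A12 (-0.30) and SLC25A13 (-0.25) were called lower and the other 4 carriers were not called, beside 7.78% of all tested genes lower.

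Of 13 genes of pyruvate entry 4 were higher and 6 lower in MRC5_coH196, near the shares of all tested genes (37.2% and 37.1%). The kinases that switch off pyruvate dehydrogenase rose, PDK1 by 1.86 and PDK3 by 2.62 on the log2 scale, and PDK4 from 0.060 ± 0.069 to 0.877 ± 0.16 FPKM, while PDK2 fell (-0.26). In FPKM the rise of PDK3 was smaller than in counts, from 0.993 ± 0.067 in MRC5_Mo to 2.63 ± 0.35 in MRC5_coH196. The pyruvate carrier genes went apart, with MPC2 at 0.64 and MPC1 at -0.69, and DLAT of the dehydrogenase fell by 0.62. PDK1 (0.96) and PDK3 (0.55) rose in H196_Co too. Of 12 pyruvate entry genes tested there 2 were higher and 2 lower, with a lowest log2 fold change of -0.41, beside 12% and 7.78% of all tested genes.

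Regulators of mitochondrial biogenesis had no common direction in MRC5_coH196, with 2 of 11 tested genes higher and 5 lower, beside 37.2% and 37.1% of all tested genes, and a median of -0.037. YY1 (0.76) and the mitochondrial rRNA methyltransferase TFB1M (0.76) rose, PPRC1 (-0.59), the mitochondrial transcription factor TFAM (-0.58) and GABPB1 (-0.50) fell, and NRF1 (-0.02, adjusted p = 0.803) and GABPA (0.02, adjusted p = 0.796) were not called. With H69 no other subunit, isoenzyme, carrier or regulator was called by edgeR or DESeq2 (2 at an unadjusted p under 0.05 with edgeR, and 1 regulator called by limma on log2(FPKM + 1)). Of the pyruvate genes MPC2 was called with H69 (-0.23, adjusted p = 0.0194, edgeR).

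**Figure D4:**
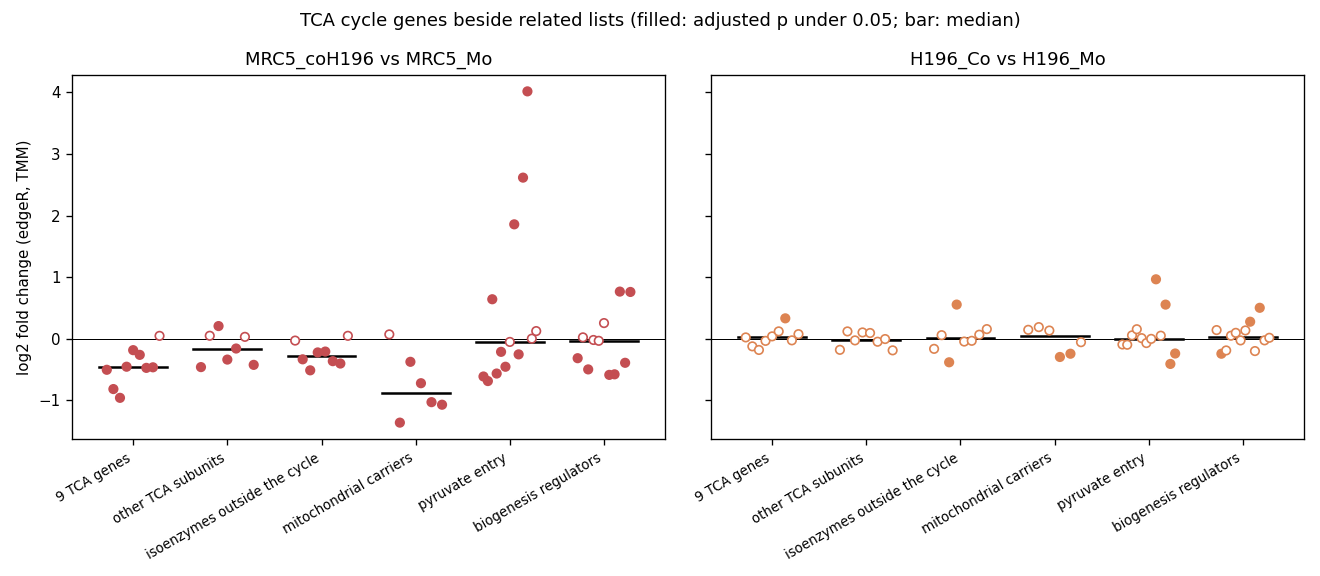
Log2 fold change (vertical axis, edgeR with TMM) of each tested gene of the 9 TCA cycle genes and of 5 related lists in MRC5 with H196 and in H196 with MRC5; filled points have an adjusted p under 0.05 and black bars are list medians. In the fibroblasts the medians run from -0.88 for the carriers to -0.037 for the biogenesis regulators, with PDK4, PDK3 and PDK1 at the top, and in H196 all medians lie near 0.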

How the data were processed

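Per the labels and the study's methods, polyA RNA was sequenced on a BGISEQ platform, reads were filtered with SOAPnuke and aligned by HISAT to GRCh38.p13 and by Bowtie2 to gene sequences. The submitters' processing notes also name HISAT2 2.1.0, Bowtie2 2.3.4.3 and RSEM 1.3.1. The authors deposited 1 table per cell line with expected counts per gene and library, not normalized and not all whole, and FPKM values to 2 decimals. Of the other per-library columns, 30 (TPM and normalized counts) were not used, nor were the authors' DESeq2 comparisons (fold changes and p-values).

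Counts were rounded and fitted in R 4.3.3 with edgeR 4.0.16 (filterByExpr, TMM, quasi-likelihood, group as the only term, two-sided): the 9 MRC5 libraries together, the 6 H196 libraries, and all 15 for the difference of responses. SE is the log2 fold change over the square root of F. Alternatives used DESeq2 1.42.0, limma 3.58.1 on FPKM (log2 with 1 or 0.1 added), different filters and models, a replicate block and leaving out each library. Scripts were tested on simulated data. The libraries are parallel cultures, so p-values measure the spread between these. Replicates differed by more than sampling noise (chi-square per gene 1.88 to 10.8). All 9 genes are named or counted in every comparison. List genes are named where past 0.58 or at list ends in MRC5_coH196 against MRC5_Mo, beside the 5 genes most like IDH3A. The genes and lists were chosen with earlier results of these data known. Promoter sequence was at hand for 8 of the 9 genes. One further gene of the cycle is not reported here and was left out of the list counts.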

Additional observations from a re-analysis of the deposited data

Results flagged for a closer look

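The response of fibroblasts to H196 and that of H196 to fibroblasts differed by the test of the difference itself (edgeR, all 15 libraries) for 8 of the 9 genes, beside 27.1% of all genes in that direction. Fibroblast change minus tumour cell change on the log2 scale was -0.83 for OGDH, -0.81 for IDH3A, -0.72 for FH, -0.55 for CS, -0.46 for SUCLG1, -0.45 for IDH3B, -0.41 for MDH2 and -0.25 for IDH3G. The difference for IDH3G lost its call in 18 of 21 alternatives (adjusted p = 0.0512 to 0.263), and the other 7 kept theirs in all 21. OGDH was called with opposite signs in the partners (-0.48 and 0.33, each line fitted on its own), and IDH3A was called lower in H196 too when all 15 libraries shared 1 model (-0.17, adjusted p = 0.0491). Groups of 3 libraries are too small for a check of single outlying libraries.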

How the results depend on the processing

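For the 8 TCA cycle genes called lower in MRC5_coH196 against MRC5_Mo, all 136 values under 17 alternatives stayed below 0 and under the threshold, with a highest adjusted p of 0.0298. With the added limit of 0.58 on the absolute log2 fold change, members called became 2, 0, 2 and 0, and all genes called 4092, 71, 3618 and 494, in fibroblasts with H196 and with H69 against alone, with H196 against with H69, and in H196. On log2(FPKM + 1) the H69 comparison gave 1 member and 404 genes, 0 pyruvate entry genes and 1 biogenesis regulator, and on log2(FPKM + 0.1) 1 member and 386 genes. The model of all 15 libraries called 2 members in H196, and limma on log2(FPKM + 1) called 2 other TCA cycle subunits there. SUCLG2 reversed in fibroblasts with H196 against alone on both FPKM scales (-0.13 and -0.13). In H196, CS (-0.058 and -0.059), IDH3G (-0.036 and -0.037) and SUCLG2 (-0.0039 and -0.0040) reversed there, none of them called. Between the lines IDH3A (-0.41, called) and OGDH (-0.082, not called) reversed on log2(FPKM + 1). In that fit FH (0.010) and IDH3G (0.11) lost their calls and SUCLG1 (-0.48) gained one. Leaving out single libraries gave 0 to 3 members and 384 to 1016 genes in the H69 comparison (384 without MRC5_Mo replicate 3, 406 without MRC5_Mo replicate 2, 495 and 561 without MRC5_coH69 replicates 1 and 2) and 1559 to 2723 genes in H196 (1559 without H196_Co replicate 3, 1656 without H196_Mo replicate 3). Uncalled values that changed sign in such fits ran from -0.0025 to 0.097 (SUCLG2, H196 against alone), from -0.060 to 0.039 (SUCLG2, H196 against H69), up to 0.0094 (IDH3A, H69 against alone), in H196 from -0.0092 to 0.045 (CS), -0.10 to 0.033 (IDH3B), -0.052 to 0.10 (IDH3G) and -0.11 to 0.0041 (SUCLG1), and from -0.083 to 0.053 (SUCLG2, difference of responses). Same-numbered libraries did not deviate together (correlations of -0.15 to 0.081), and with replicate number as a block 8, 2, 7 and 1 members were called in the 4 comparisons; IDH3G lost its call in the difference of responses (-0.25, adjusted p = 0.0534).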
